A study of Rattus norvegicus with 18 samples.

Results

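The genes described are nuclear genes for subunits of oxidative phosphorylation, taken by symbol from the deposited expression table and sorted into complexes I to V and cytochrome c. The rule took every row whose symbol starts with Nduf (other than Ndufaf), Uqcr, Cox4, Cox5, Cox6, Cox7, Cox8 or Atp5, together with Sdha to Sdhd, Cyc1 and Cycs. It found 83 of the 17303 rows: 36 for complex I, 4 for complex II, 9 for complex III, 16 for complex IV, 17 for complex V and cytochrome c itself. No row had the symbol Ndufa3, Ndufa13, Ndufc1, Cox6b1 or Cox7a1, so the set of subunits is not complete. Since symbols decide the complex, Ndufa4 counts for complex I, although it is a subunit of complex IV. Ndufa4l2, Cox7a2l, Atp5s and Atp5sl, which are no structural subunits of these complexes, also count by symbol. Of these, 81 had at least 1 FPKM (fragments scaled by transcript length and library depth) in at least 3 libraries and were tested. The cells were ventricular cardiomyocytes of Wistar rats taken on postnatal day 3. Cultures were treated for 48 h in 6 groups with 3 libraries each. The groups were 10 µM phenylephrine (PE), an alpha1-adrenergic agonist that induces hypertrophic growth, PE with 10 µM Senexin A, PE with 50 µM Senexin A, 10 µM Senexin A alone, 50 µM Senexin A alone, and Vehicle. Senexin A inhibits CDK8, a kinase that associates with the Mediator complex. All cultures, Vehicle included, had first been given AraC, which acts on dividing cells, for 48 h and kept without serum for 24 h, and media with treatments were renewed after 24 h. The study asked how CDK8 activity bears on the transcriptional response to a hypertrophic stimulus.

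Oxidative phosphorylation supplies most of the ATP of heart muscle. Complex I takes electrons from NADH and complex II from succinate, complex III passes them to cytochrome c, and complex IV passes them to oxygen. Complex V, the ATP synthase, makes ATP with the proton gradient that complexes I, III and IV build. Each complex other than complex II also has subunits encoded in mitochondrial DNA, which were not analysed here.

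On the FPKM scale, which is per transcript length, complexes IV and V stood highest in Vehicle cultures. The median tested gene had 252 FPKM in complex I, 287.5 in complex II, 336 in complex III, 959 in complex IV and 768 in complex V, and Cycs had 495 (means of 3 Vehicle libraries). Within complexes the spread was wide. In complex V the mean Vehicle level was 8.32 FPKM for Atp5s, a coupling factor that is no core subunit, against 2532 FPKM for Atp5b, the catalytic beta subunit. Over all libraries the most abundant gene of each complex was Ndufb9 (1077.5 FPKM), Sdhd (487), Uqcr10 (8903), Cox6a2 (3345) and Atp5b (3394). The Uqcr10 row covers a locus of 180 bases and Ndufs6, an accessory subunit at 1.02 to 4.48 FPKM, one of 415 bases; whether such short models set these levels was not tested. Together the 81 tested genes took 8.81% ± 0.63 of the FPKM sum in PE, 9.68% ± 0.8 in PE with 10 µM, 8.99% ± 0.69 in PE with 50 µM, 7.54% ± 0.62 in Vehicle, 9.71% ± 0.85 in 10 µM alone and 10.3% ± 0.56 in 50 µM alone (SD, n = 3 each).

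FPKM sums per library were 810428 to 853958 in PE, 839442 to 910958 in PE with 10 µM, 790067 to 897706 in PE with 50 µM, 610324 to 660958 in Vehicle, 699695 to 746492 in 10 µM alone and 755249 to 826406 in 50 µM alone. Total reads were not given, so counting error is unknown. Libraries of a group differed in a shared way over these genes. Replicate 2 was the highest of its group in 76 of 81 tested genes for PE with 10 µM, in 78 for PE with 50 µM, in 72 for 10 µM alone and in 75 for 50 µM alone. Replicate 3 was the lowest in 75 of 81 genes in PE and in 76 in Vehicle. Results that turn on such a library are given with and without it. The 11 cardiomyocyte markers measured, led by Myl2, summed to 100528 to 119097 FPKM in PE, 81993 to 102570 in PE with 10 µM, 54137 to 68126 in PE with 50 µM, 38588 to 54019 in Vehicle, 56915 to 72760 in 10 µM alone and 40197 to 62511 in 50 µM alone. The 10 fibroblast markers summed to 1271 to 2006 FPKM in PE, 899 to 1795 in PE with 10 µM, 643 to 1246 in PE with 50 µM, 1872 to 3144 in Vehicle, 1720 to 3269 in 10 µM alone and 1004 to 1354 in 50 µM alone. The 7 smooth muscle and pericyte markers summed to 3829 to 5762 FPKM in PE, 3226 to 4312 in PE with 10 µM, 1841 to 2022 in PE with 50 µM, 4542 to 6144 in Vehicle, 3875 to 5075 in 10 µM alone and 1824 to 2853 in 50 µM alone. Sums of the 7 endothelial markers lay between 1.09 and 7.72 FPKM and those of the 8 macrophage markers between 3.62 and 40.5 FPKM over all libraries. Col1a2, a collagen gene of fibroblasts, stood at or next to the table floor of 0.01 FPKM in all libraries. The sums follow their most abundant genes, and not all markers moved with them. With PE 8 of 11 cardiomyocyte markers were called higher and 1 lower, where 17.9% and 12.7% of all tested rows were. Of 7 smooth muscle and pericyte markers 2 were higher and 0 lower, and of 9 fibroblast markers 0 were called. With 50 µM added to PE, where 29.3% and 27.4% of all rows were called higher and lower, the cardiomyocyte counts were 2 and 6. The others were 0 and 3, and 0 and 4. In RNA from whole cultures, fewer cells of a type and less RNA per cell cannot be told apart, and the part of cell makeup in the results below was not tested.

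PE raised most of the genes in every complex. Of 81 tested genes 63 rose and 1 fell against Vehicle, where 30.6% of all tested rows were called, 17.9% higher and 12.7% lower. The median log2 fold change was 0.57 over the 81 genes and -0.01 over all rows. By complex, 26 of 36 genes rose in complex I (median 0.49), 3 of 4 in complex II (0.47), 9 of 9 in complex III (0.72), 11 of 14 in complex IV (0.56) and 13 of 17 in complex V (0.65), and Cycs rose. The PE libraries lay wholly above the Vehicle libraries in 70 of the 81 genes, against 25.7% of all rows. The largest rises were those of Ndufs1, the iron-sulfur subunit next to the NADH site (1.04 ± 0.13 SE, adjusted p = 2.47e-05), and Cox6a2, the heart and muscle form of a complex IV subunit (1.12 ± 0.17, adjusted p = 0.000132). Ndufv1, which binds NADH, rose by 0.92 ± 0.12 (adjusted p = 4.4e-05). Only Cox8b, the heart and muscle form of subunit VIII, was called lower (-0.39 ± 0.14, adjusted p = 0.042). That call was lost in 7 of 30 alternatives (adjusted p from 2.9e-05 to 0.13), all but one of them omissions of 1 library. The 17 genes not called included Ndufs7, the iron-sulfur subunit next to the quinone site (0.24, adjusted p = 0.0988), and Atp5c1, a central-stalk subunit of the ATP synthase (0.30, adjusted p = 0.0652).

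The size of this shift depended on how libraries were scaled. With each library brought to the same FPKM sum, the median of all rows fell to -0.37, and 5.89% of rows were called higher and 57.6% lower. On that scale 36 of the genes were called higher and 7 lower, their median was 0.17, and it lay 0.53 above that of all rows. After quantile normalization 41 were called higher and 3 lower, with a median of 0.27. Atp5g2 and Uqcr10 changed sign after quantile normalization, and Atp5g2, Cox7a2l, Cox7c, Ndufa8 and Sdhc changed sign at equal FPKM sums.

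**Figure D1:**
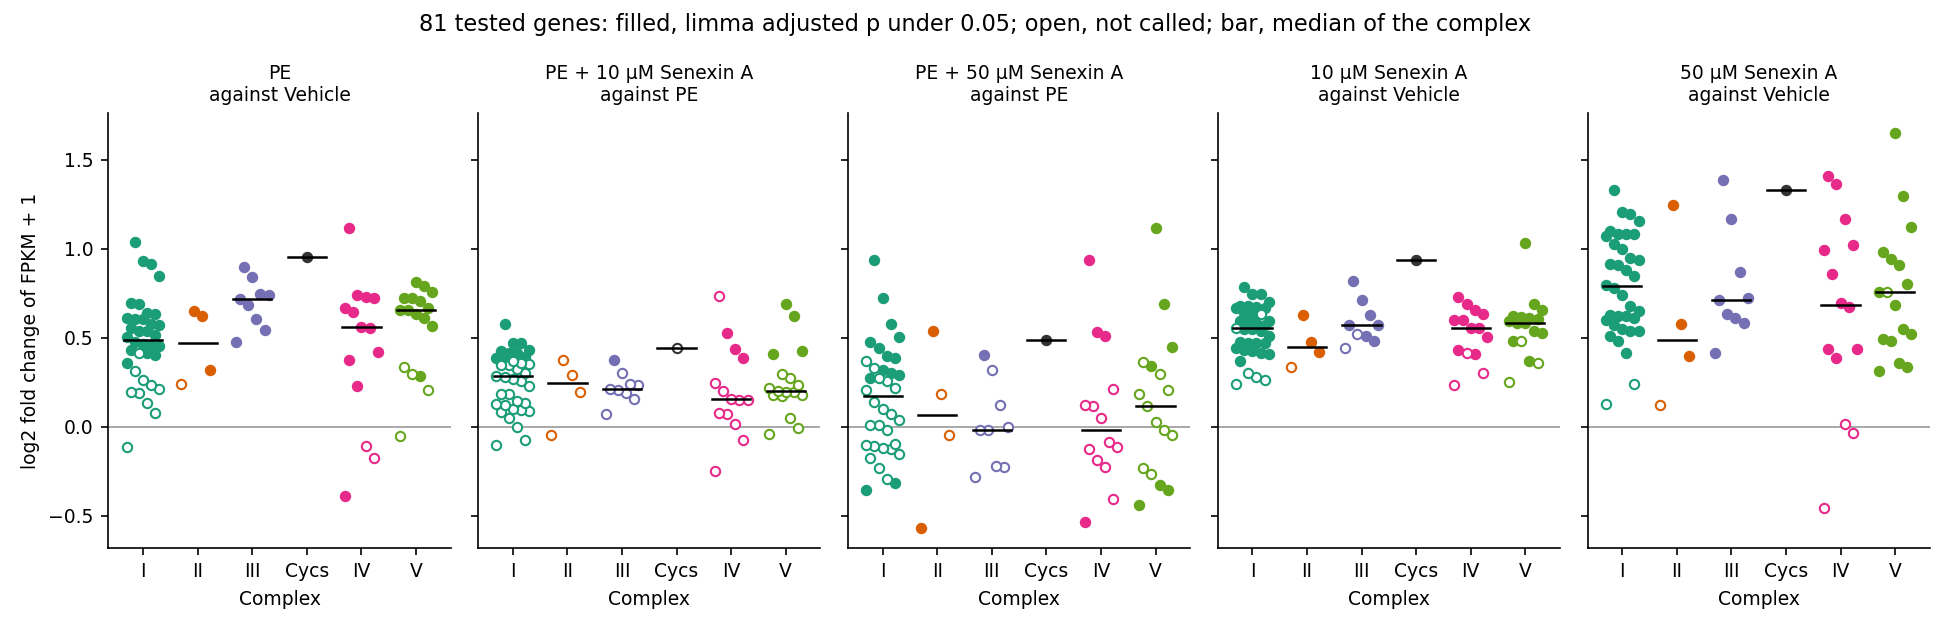
Log2 fold change of FPKM + 1 (y axis) of each tested gene by complex (x axis) in 5 comparisons; filled points passed a limma adjusted p under 0.05, open points did not, and bars are medians. PE and both doses of the inhibitor alone lie mostly above 0 in each complex, with medians over the 81 genes of 0.57, 0.56 and 0.72, whereas 50 µM added to PE spreads the genes to both sides of 0 (median 0.10).

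Senexin A without PE raised genes in every complex. At 10 µM 66 of 81 genes rose and 0 fell against Vehicle, where 9.17% of all rows were called higher and 7.01% lower. The median was 0.56, all 81 estimates lay above 0, and the medians of complexes I to V were 0.55, 0.45, 0.57, 0.56 and 0.58. The largest rise was that of Atp5g1, one of 3 genes for the ATP synthase c subunit (1.04 ± 0.17 SE, adjusted p = 0.000789), followed by Cycs (0.94 ± 0.18, adjusted p = 0.00227). The count was 35 without replicate 2 of 10 µM alone and 36 without Vehicle replicate 3. At 50 µM 74 of 81 rose and 0 fell, where 30.5% of all rows were called higher and 30.2% lower, and the median was 0.72. All 50 µM libraries lay above all Vehicle libraries in 74 genes, against 32.6% of all rows. The medians were 0.79 in complex I, 0.49 in complex II, 0.71 in complex III, 0.68 in complex IV and 0.76 in complex V. The 7 genes not called were Sdha, Cox8b, Cox4i2, Cox6b2, Ndufa1, Ndufs6 and Atp5f1. At equal FPKM sums the median of all rows was -0.18 at 10 µM and -0.28 at 50 µM. All rows were then split into 5.33% higher and 23.6% lower at 10 µM and 16.5% higher and 46.9% lower at 50 µM, while 60 and 61 of the genes were called higher, and 0 and 1 lower. The median of the genes then lay 0.55 and 0.70 above that of all rows.

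Between the doses without PE, 26 genes were higher and 1 lower at 50 µM than at 10 µM, where 50.4% of all rows were called, 25.4% higher and 24.9% lower. With the replicate block the counts were 41 and 4, and after quantile normalization they were 24 and 9. Cox6a2 was higher by 0.81 ± 0.17 (adjusted p = 0.000788) and Ndufb10, an accessory subunit of the membrane arm, by 0.65 ± 0.13 (adjusted p = 0.000676). The libraries at 50 µM lay wholly above those at 10 µM in 32 genes, against 27.6% of all rows. The lower gene was Cox8b (-0.54 ± 0.14, adjusted p = 0.00418).

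In cultures with PE fewer genes were called, and at 50 µM they moved in both directions. With 10 µM added 18 of 81 rose and 0 fell against PE alone, where 9.13% of all rows were called higher and 7.84% lower. The 18 comprised 10 genes of complex I, 1 of complex III, 3 of complex IV and 4 of complex V. With the replicate block 39 rose, while without PE replicate 3 the count was 4, without PE replicate 2 it was 10, and without replicate 2 of PE with 10 µM it was 5. With 50 µM added 22 rose and 7 fell, where 56.7% of all rows were called, 29.3% higher and 27.4% lower, so the share of genes that rose (27.2%) was near the background and the share that fell (8.64%) was below it. With the replicate block 34 rose and 13 fell, and after quantile normalization 27 rose and 18 fell. The median was 0.23 at 10 µM and 0.10 at 50 µM.

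Complex by complex, 50 µM with PE gave 12 rises and 2 falls in complex I, 1 and 1 in complex II, 1 and 0 in complex III, 3 and 1 in complex IV and 4 and 3 in complex V. The 7 genes that fell included Sdha (-0.57 ± 0.12 SE, adjusted p = 0.000638), Atp5b (-0.44 ± 0.12, adjusted p = 0.00635), Atp5a1, the alpha subunit of the ATP synthase (-0.36 ± 0.13, adjusted p = 0.0313), and Ndufs1 (-0.35 ± 0.13, adjusted p = 0.0279). Other genes for electron carriers or for the central stalk of the ATP synthase rose in the same comparison, among them Ndufs7 (0.72), Sdhb (0.54), Cycs (0.49), Atp5c1 (0.45) and Cyc1 (0.41). The Atp5a1 call was lost in 5 of 30 alternatives (adjusted p from 6.61e-05 to 0.118) and the Ndufs1 call in 4 of 30 (0.000904 to 0.103). The others that fell were Cox8b, Atp5e, the epsilon subunit (-0.33), and Ndufa10 (-0.32), whose locus as deposited holds 25 other rows and is shared with Ndufa10l1, so that its value is uncertain. The largest rises were in 3 genes that are no structural subunits of the complex their symbols point to, namely Atp5s (1.12 ± 0.09, adjusted p = 1.05e-07), the supercomplex assembly factor Cox7a2l (0.94 ± 0.08, adjusted p = 1.26e-07) and Ndufa4l2, a hypoxia-induced paralog of Ndufa4 (0.94 ± 0.21, adjusted p = 0.00126). Ndufa4l2 was low, at 1.91, 2.32 and 1.66 FPKM in PE with 50 µM against 0.79, 0.404 and 0.455 FPKM in PE. Set directly against PE with 10 µM, PE with 50 µM had 3 genes higher and 10 lower, where 21.3% of all rows were called higher and 19.9% lower. With the replicate block these counts were 4 and 30. Without replicate 2 of PE with 50 µM 27 genes were called in either direction, and without replicate 2 of PE with 10 µM 6 were.

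The median response to PE was smaller at each higher dose of the inhibitor, which is given here without a test. The median PE effect over the 81 genes was 0.57 without inhibitor, 0.25 between PE with 10 µM and 10 µM alone, and -0.12 between PE with 50 µM and 50 µM alone. It was above 0 in 76, 72 and 10 of the 81 genes at 0, 10 and 50 µM. By complex the medians at 50 µM were -0.16, -0.10, -0.05, -0.11 and -0.04 for complexes I to V, against 0.49, 0.47, 0.72, 0.56 and 0.65 without inhibitor. The difference between the PE responses at 50 and 0 µM was tested as an interaction, and 39 of the 81 genes were called lower and 0 higher, where 4.76% of all rows were called lower and 2.24% higher. They were 17 genes of complex I, 2 of complex II, 6 of complex III, 5 of complex IV and 9 of complex V. Cox6a2 had the largest difference (-1.36 ± 0.24 SE, adjusted p = 0.00314). It was followed by Uqcrq, a small complex III subunit (-1.07 ± 0.19, adjusted p = 0.00418), and Ndufa12, an accessory subunit of complex I (-1.06 ± 0.20, adjusted p = 0.00552). With the replicate block 72 genes were called. Leaving out 1 library gave 17 (Vehicle replicate 3) to 65 (replicate 2 of PE with 50 µM), and it gave 19 without replicate 1 of PE with 50 µM, PE replicate 1, PE replicate 2 or replicate 2 of 50 µM alone, and 21 without replicate 3 of PE with 50 µM. At equal FPKM sums, where the median of all rows was 0.32 and 24.5% of them were called higher and 2.46% lower, 37 were called lower and 1 higher, and the median of the genes lay 0.66 below that of all rows. For 10 µM the interaction gave 0 calls by limma, with 15 of 81 genes at an unadjusted p under 0.05 and 10 called lower with the replicate block, where 0.0668% of all rows were called higher and 0.239% lower. Its median was -0.29.

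**Figure D2:**
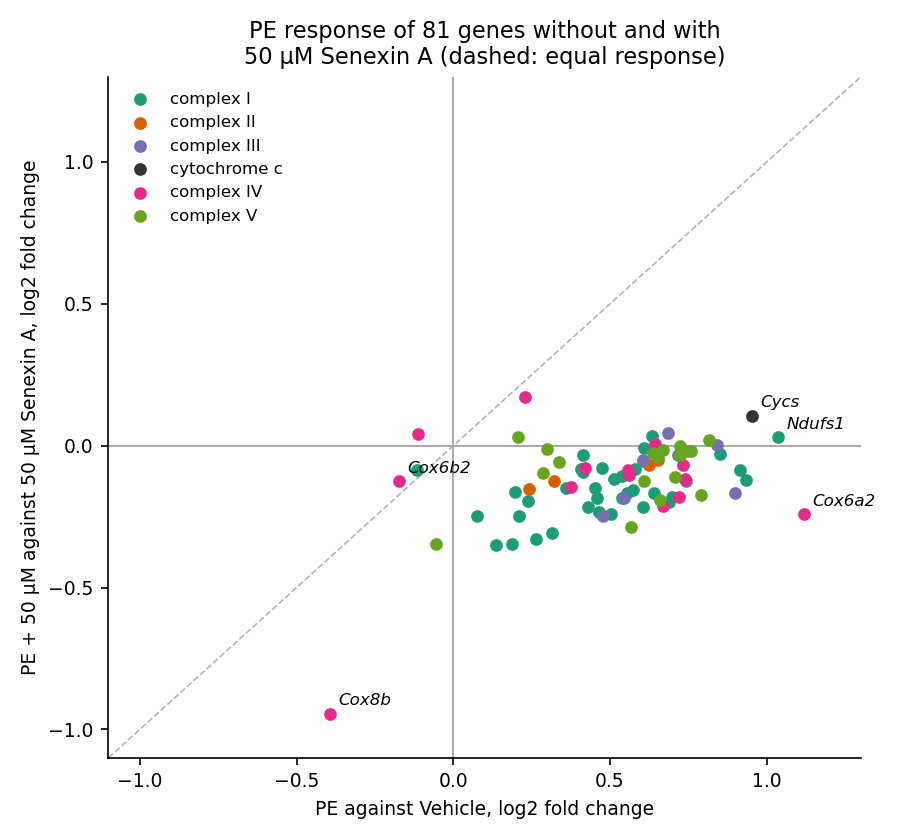
PE effect on each of the 81 tested genes without inhibitor (x axis) and in the presence of 50 µM Senexin A (y axis), both as log2 fold change of FPKM + 1 and from separate libraries; colours mark complexes and the dashed line marks equal responses. The x value is above 0 in 76 genes and the y value in 10, with medians of 0.57 and -0.12, and Cox8b lies lowest at -0.94.

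**Figure D3:**
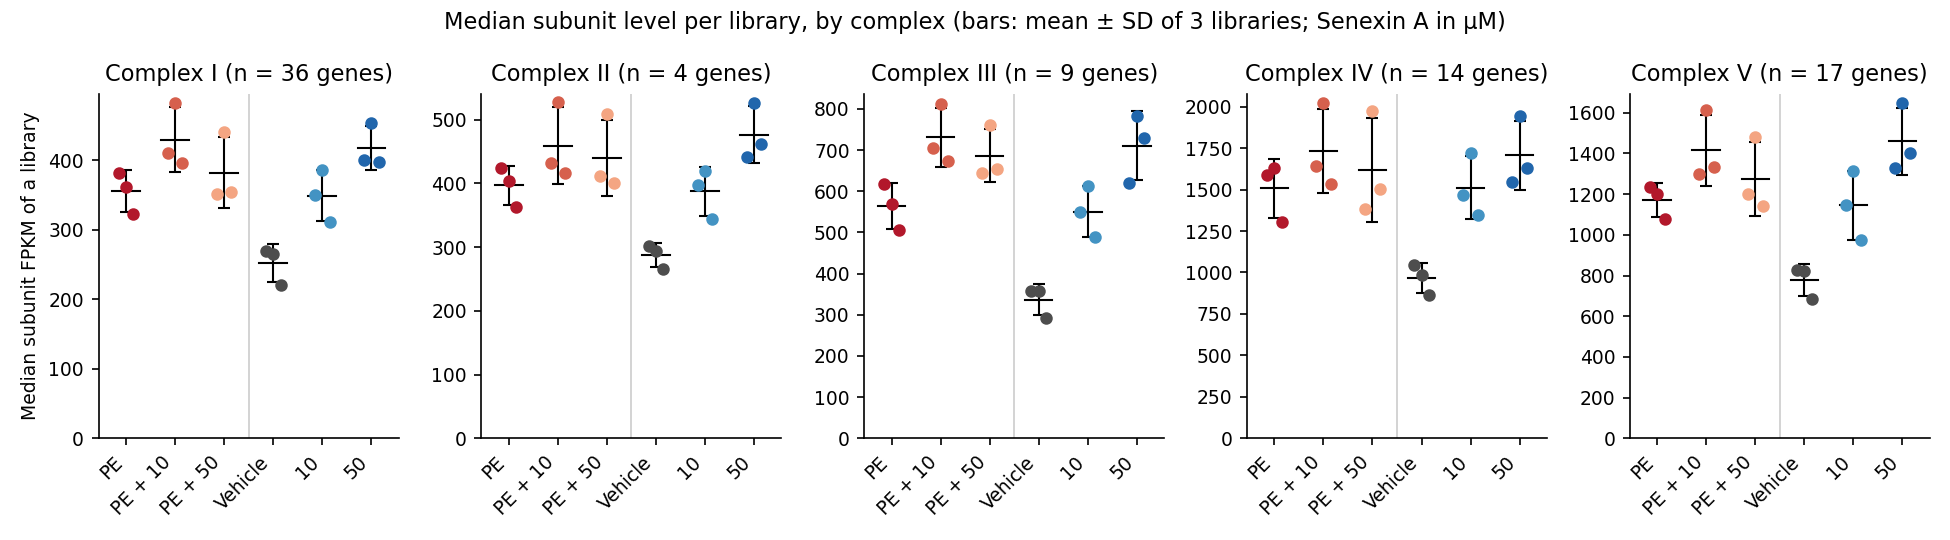
Median FPKM of the tested genes of each complex in each library (points), with the mean ± SD of 3 libraries (bars), for the groups with PE on the left and those without PE on the right of each panel. Vehicle is the lowest group in each complex (for complex I 252 ± 27.4 FPKM), and without PE the level is higher at each dose (349 ± 37.0 and 417 ± 31.7 FPKM).

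The medians of all 5 complexes lay lowest in Vehicle. In complex I the median gene had 355.5 ± 30.3 FPKM in PE, 430 ± 46.7 in PE with 10 µM, 382 ± 51.1 in PE with 50 µM, 252 ± 27.4 in Vehicle, 349 ± 37.0 in 10 µM alone and 417 ± 31.7 in 50 µM alone (SD, n = 3 each). Ratios between complexes within a library do not depend on a scaling factor for that library. The ratio of the median complex I gene to the median complex III gene was 0.619 to 0.639 in PE, 0.582 to 0.595 in PE with 10 µM, 0.543 to 0.581 in PE with 50 µM, 0.741 to 0.754 in Vehicle, 0.630 to 0.638 in 10 µM alone and 0.544 to 0.647 in 50 µM alone. Each treated library thus lay below each Vehicle library in that ratio. With only 9 genes in complex III, the ratio depends on which gene lies at its median. Median log2 changes against Vehicle in complexes I and III were 0.49 and 0.72 with PE and 0.55 and 0.57 at 10 µM alone. At 50 µM alone they were 0.79 and 0.71, so there the genes of complex I did not lag. The ratio of complex IV to complex V was 1.21 to 1.36 in PE, 1.15 to 1.27 in PE with 10 µM, 1.15 to 1.34 in PE with 50 µM, 1.2 to 1.27 in Vehicle, 1.28 to 1.38 in 10 µM alone and 1.16 to 1.18 in 50 µM alone. Libraries of 10 µM alone thus lay above Vehicle and those of 50 µM alone below it, while the groups with PE overlapped Vehicle. Median log2 changes of complexes IV and V were 0.56 and 0.58 at 10 µM alone and 0.68 and 0.76 at 50 µM alone. The higher ratio at 10 µM alone was thus not seen in them.

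Complex II, succinate dehydrogenase, has 4 subunits, all nuclear, and its catalytic pair moved apart with the inhibitor, both with PE and without it. Their promoter sequences are shown because these genes encode the same enzyme head and were called in opposite directions when 50 µM was added to PE. In that comparison 29.3% of all rows were called higher and 27.4% lower. The runs are the 250 bases before the start, 5′ to 3′ on the gene's strand, in the GRCr8 build from RefSeq, and capitals mark the core of the site of NRF1, a regulator of nuclear genes for mitochondrial proteins.
Sdha (chr1:30764303-30764552, plus strand): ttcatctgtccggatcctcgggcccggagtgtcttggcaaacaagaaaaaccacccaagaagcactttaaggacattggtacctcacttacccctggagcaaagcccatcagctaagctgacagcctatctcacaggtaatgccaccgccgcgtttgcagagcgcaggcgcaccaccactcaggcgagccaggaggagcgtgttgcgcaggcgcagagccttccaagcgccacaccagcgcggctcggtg
Sdhb (chr5:158547684-158547933, plus strand): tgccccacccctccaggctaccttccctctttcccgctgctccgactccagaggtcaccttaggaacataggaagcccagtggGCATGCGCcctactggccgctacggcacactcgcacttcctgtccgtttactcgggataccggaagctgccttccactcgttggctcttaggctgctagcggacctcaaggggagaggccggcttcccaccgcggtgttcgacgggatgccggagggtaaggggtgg

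In the authors' coordinates (rn5), Sdha lies on chromosome 1 from 32971778 to 32996749 and Sdhb on chromosome 5 from 163197044 to 163217314. Sdha, the flavoprotein that oxidizes succinate, had 426, 408 and 361 FPKM in PE, 355, 441 and 363.5 FPKM in PE with 10 µM and 250.1, 296 and 258 FPKM in PE with 50 µM. Without PE it had 272, 269.6 and 233 FPKM in Vehicle, 316, 364 and 299 FPKM at 10 µM and 243, 325 and 279.7 FPKM at 50 µM. PE libraries were thus all above Vehicle, and with PE all 50 µM libraries were below PE. Sdha rose with PE (0.62 ± 0.12 SE, adjusted p = 0.000958), fell with 50 µM in the presence of PE, and was not called at 10 µM alone (0.34, adjusted p = 0.0623, and 0.00596 with the replicate block) or at 50 µM alone (0.12, adjusted p = 0.381).

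Sdhb, the iron-sulfur subunit that hands electrons on, had 395, 359 and 313 FPKM in PE, 442, 551 and 397 FPKM in PE with 10 µM and 481, 630.1 and 451 FPKM in PE with 50 µM. Without PE it had 236, 239 and 201 FPKM in Vehicle, 371, 373 and 305 FPKM at 10 µM and 506, 581 and 517 FPKM at 50 µM. Vehicle libraries were the lowest, and the libraries of 50 µM alone did not overlap those of 10 µM alone. Sdhb rose with PE (0.65 ± 0.14, adjusted p = 0.00239), with 50 µM added to PE (0.54 ± 0.14, adjusted p = 0.00371), with 10 µM alone (0.63 ± 0.14, adjusted p = 0.00678) and with 50 µM alone (1.25 ± 0.14, adjusted p = 1.52e-06). With 10 µM added to PE it gave 0.37 (adjusted p = 0.079, and 0.00449 with the replicate block).

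The ratio of Sdha to Sdhb within a library, chosen after the values were seen and given with no test, averaged 1.12 ± 0.039 in PE, 0.84 ± 0.066 in PE with 10 µM, 0.521 ± 0.051 in PE with 50 µM, 1.15 ± 0.018 in Vehicle, 0.937 ± 0.074 in 10 µM alone and 0.527 ± 0.042 in 50 µM alone (SD, n = 3 each). Libraries at 50 µM lay below all others in this ratio. The membrane anchors Sdhc and Sdhd varied less. Sdhc had 396 ± 28.9 FPKM in PE, 454.5 ± 44.4 in PE with 10 µM, 385 ± 57.5 in PE with 50 µM, 317 ± 17.1 in Vehicle, 425 ± 42.0 in 10 µM alone and 419 ± 48.0 in 50 µM alone. Its rise with PE (0.32, adjusted p = 0.0405) was lost in 8 of 30 alternatives (adjusted p from 0.00453 to 0.812). Sdhd had 439 ± 26.9 FPKM in PE, 539 ± 72.7 in PE with 10 µM, 499 ± 57.8 in PE with 50 µM, 372 ± 32.3 in Vehicle, 518 ± 49.3 in 10 µM alone and 556 ± 70.6 in 50 µM alone. It was called higher at 10 µM alone (0.48 ± 0.12, adjusted p = 0.0112) and at 50 µM alone (0.58 ± 0.12, adjusted p = 0.000455). With PE it gave 0.24 (adjusted p = 0.129, and 0.00925 with the replicate block).

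**Figure D4:**
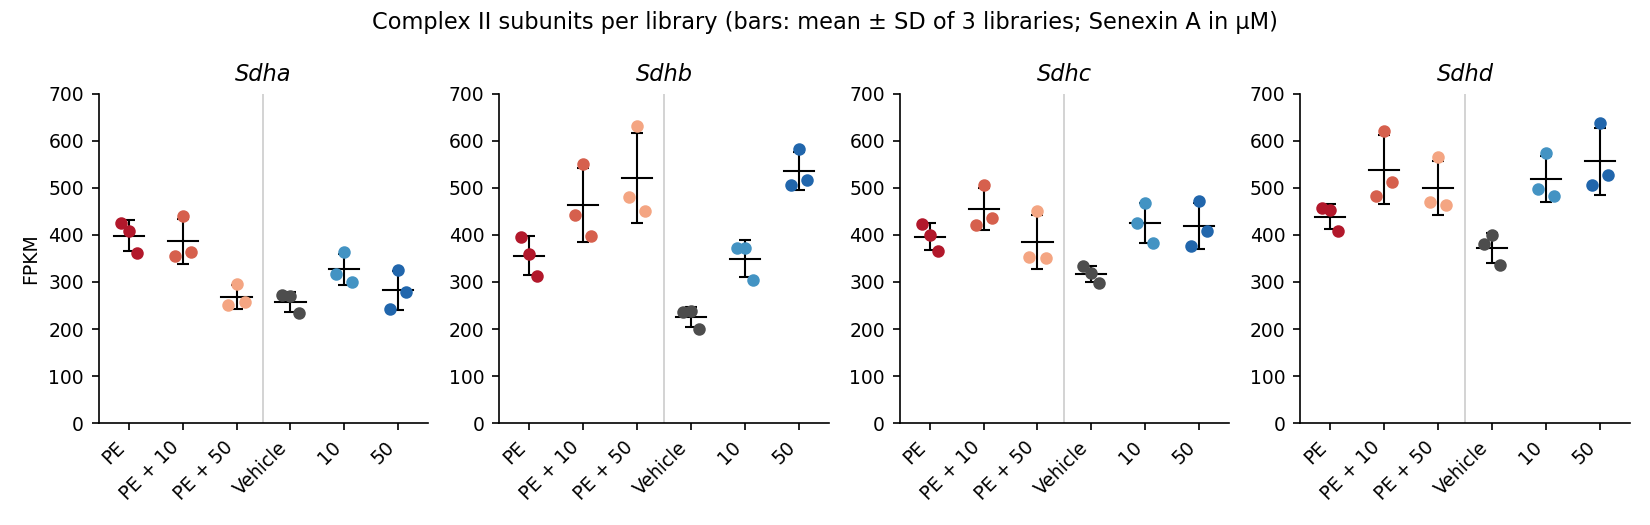
FPKM of the 4 complex II genes in each library (points) with mean ± SD of 3 libraries (bars), groups with PE left and groups without PE right of the grey line. Sdha is near 268 FPKM in PE with 50 µM against 398 FPKM in PE, whereas Sdhb is near 521 FPKM in PE with 50 µM against 356 FPKM in PE.

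Cytochrome c and complex III moved with the majority. Cycs, the carrier between complexes III and IV, holds an NRF1 core 157 bases before its start and is shown as the gene with the largest PE effect outside complexes I and IV.
Cycs (chr4:80984768-80985017, minus strand): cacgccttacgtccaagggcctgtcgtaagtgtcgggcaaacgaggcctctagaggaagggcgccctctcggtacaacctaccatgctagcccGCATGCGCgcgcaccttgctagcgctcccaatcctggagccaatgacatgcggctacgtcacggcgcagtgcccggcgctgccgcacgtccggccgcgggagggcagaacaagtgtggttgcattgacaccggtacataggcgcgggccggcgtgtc

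Cycs had 1086, 996 and 796 FPKM in PE, 1210.2, 1496 and 1193 FPKM in PE with 10 µM and 1271, 1635.5 and 1138 FPKM in PE with 50 µM. In cultures without PE it had 533.5, 546 and 406.5 FPKM in Vehicle, 1001, 1073 and 774.5 FPKM at 10 µM and 1063, 1511 and 1182 FPKM at 50 µM. All libraries of each treated group were above all Vehicle libraries. Cycs rose with PE (0.95 ± 0.18 SE, adjusted p = 0.000861) and with 50 µM alone (1.33 ± 0.18, adjusted p = 8.73e-06). Its rise with 50 µM added to PE (0.49, adjusted p = 0.028) was lost without replicate 2 of PE with 50 µM (0.14) and without PE replicate 3 (0.133), over a range of 0.000718 to 0.14. At 10 µM added to PE it gave 0.44 (adjusted p = 0.0998, and 0.00512 with the replicate block), and its interaction at 50 µM gave -0.85 (adjusted p = 0.052, and 0.00121 with the block).

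Cyc1, the cytochrome c1 subunit that passes electrons to cytochrome c, averaged 564 ± 56.3 FPKM in PE, 731 ± 71.9 in PE with 10 µM, 749.5 ± 109 in PE with 50 µM, 336 ± 38.0 in Vehicle, 550.1 ± 61.5 in 10 µM alone and 756 ± 75.4 in 50 µM alone. It rose with PE (0.75 ± 0.12, adjusted p = 0.000347) and was the 1 complex III gene called at both doses on top of PE. The call at 10 µM (0.37, adjusted p = 0.0488) was lost in 14 of 30 alternatives (0.0027 to 0.19) and that at 50 µM (0.41, adjusted p = 0.0108) in 2 of 30 (9.77e-05 to 0.0659). Uqcrq averaged 184 ± 27.4 FPKM in PE against 97.8 ± 14.1 in Vehicle, and 256 ± 24.5 in 50 µM alone. The core proteins Uqcrc1 and Uqcrc2 rose with PE by 0.72 and 0.68, the Rieske iron-sulfur protein Uqcrfs1 by 0.60 and the hinge protein Uqcrh by 0.84 (adjusted p from 0.000621 to 0.00299).

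In complex IV some subunits have a muscle form and a widespread form, and the pairs differed in some comparisons and not in others. Cox6a2, the muscle form of subunit VIa, had 3800.0, 3987 and 3389 FPKM in PE, 3136, 4070.0 and 3446 FPKM in PE with 10 µM and 3541, 4448 and 3618 FPKM in PE with 50 µM. Without PE it had 2246, 1634 and 1364 FPKM in Vehicle, 2895, 2765 and 2185.5 FPKM at 10 µM and 4167, 4965 and 4553 FPKM at 50 µM. Vehicle was lowest apart from an overlap with 10 µM alone, and the 3 groups with PE overlapped. The widespread form Cox6a1 averaged 1506 ± 199 FPKM in PE, 2171 ± 291 in PE with 10 µM, 2145 ± 310.2 in PE with 50 µM, 902 ± 114 in Vehicle, 1500.7 ± 247 in 10 µM alone and 2313 ± 146 in 50 µM alone. Against PE it rose with 10 µM (0.53 ± 0.15 SE, adjusted p = 0.0215) and 50 µM (0.51 ± 0.15, adjusted p = 0.00742), where Cox6a2 gave -0.07 and 0.05 (adjusted p = 0.8 and 0.819). The 10 µM call of Cox6a1 was lost without replicate 2 of PE with 10 µM (0.0946) and without PE replicate 3 (0.109), over a range of 0.000332 to 0.109.

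With PE the muscle form of subunit VIII was lower, in contrast to that of subunit VIa. The 250 bases before Cox8b and Cox8a are printed because Cox8b was the 1 gene called lower with PE and Cox8a was called higher. Capitals mark the core of ETS sites, bound by factors such as GABP, a regulator of nuclear genes for mitochondria, at 58 and 20 bases before the start of Cox8a.
Cox8b (chr1:205408274-205408523, minus strand): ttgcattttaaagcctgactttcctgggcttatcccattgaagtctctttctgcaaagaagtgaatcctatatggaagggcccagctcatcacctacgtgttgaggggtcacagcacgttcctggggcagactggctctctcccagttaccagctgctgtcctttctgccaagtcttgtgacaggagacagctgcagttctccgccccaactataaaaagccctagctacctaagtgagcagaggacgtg
Cox8a (chr1:213833624-213833873, minus strand): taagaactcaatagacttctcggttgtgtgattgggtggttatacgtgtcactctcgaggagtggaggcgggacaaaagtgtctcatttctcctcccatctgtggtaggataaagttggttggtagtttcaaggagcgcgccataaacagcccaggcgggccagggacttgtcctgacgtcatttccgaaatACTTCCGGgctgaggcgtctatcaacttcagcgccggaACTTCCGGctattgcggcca

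Cox8b, the muscle form, had 742, 719.5 and 662 FPKM in PE, 670.1, 1011 and 872 FPKM in PE with 10 µM and 426, 550.4 and 493 FPKM in PE with 50 µM. Its levels without PE were 955, 1002 and 835 FPKM in Vehicle, 1315, 1425 and 1353 FPKM at 10 µM and 903, 1106 and 826 FPKM at 50 µM. PE libraries lay below Vehicle, and the libraries of 10 µM alone lay above those of every other group. Cox8b was called higher at 10 µM alone (0.56 ± 0.14, adjusted p = 0.0132), a call lost in 3 of 30 alternatives (0.00115 to 0.137), and lower at 50 µM added to PE (-0.54 ± 0.14, adjusted p = 0.0036). The widespread form Cox8a averaged 2018 ± 220.0 FPKM in PE, 2135 ± 355 in PE with 10 µM, 1865.5 ± 241 in PE with 50 µM, 1509.5 ± 180.1 in Vehicle, 1861 ± 236 in 10 µM alone and 1968 ± 205 in 50 µM alone. Its rise with PE (0.42, adjusted p = 0.034) was lost in 7 of 30 alternatives (0.000403 to 0.867).

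Ratios of such isoforms within a library were compared over 6 pairs with exact two-sided permutation tests of 3 against 3 libraries, 42 in all, in which the smallest p possible is 0.1. Cox6a2 to Cox6a1 was 2.32, 2.49 and 2.65 in PE against 2.26, 1.74 and 1.76 in Vehicle (exact p = 0.1). It was 1.5, 1.63 and 1.79 in PE with 10 µM and 1.81, 1.78 and 1.83 in PE with 50 µM (exact p = 0.1 for each against PE). Against Vehicle it overlapped at 10 µM alone (log2 difference -0.13, exact p = 0.5) and at 50 µM alone (0.05, exact p = 0.8), where Cox6a2 and Cox6a1 rose by 1.41 and 1.36. Cox8b to Cox8a was 0.374, 0.319 and 0.365 in PE against 0.63, 0.594 and 0.63 in Vehicle, and it was 0.257, 0.259 and 0.272 in PE with 50 µM (exact p = 0.1 for PE against Vehicle and for PE with 50 µM against PE). Of the forms of subunit IV, Cox4i1 dominated, with a mean ratio of 308 to Cox4i2 in PE and 190 in Vehicle, and Cox4i2 stayed at 3.78 to 10.5 FPKM. Cox6b2, known as a testis form, was low and was called in 1 comparison, PE with 50 µM against PE with 10 µM (-1.14 ± 0.31, adjusted p = 0.00685), at 4.17, 1.47 and 3.35 FPKM in PE with 50 µM against 9.08, 4.73 and 9.35 FPKM in PE with 10 µM.

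**Figure D5:**
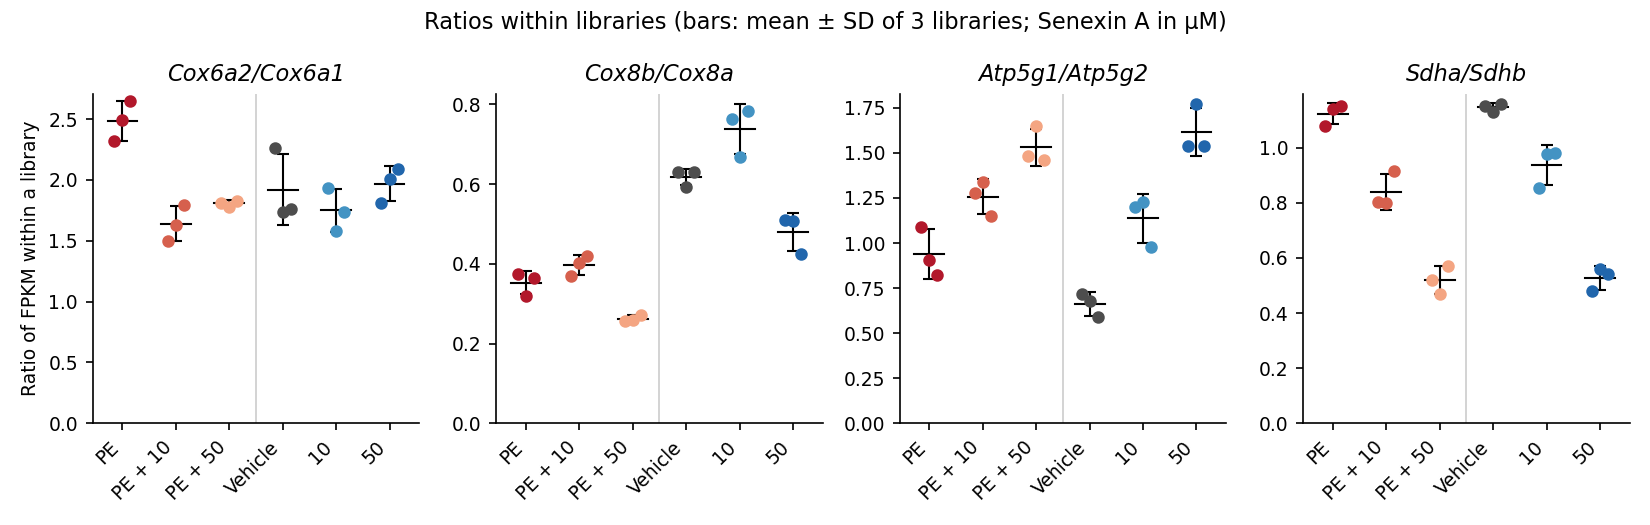
Ratio of FPKM within each library (points) for 4 gene pairs, with the mean ± SD of 3 libraries (bars), groups with PE left and groups without PE right of the grey line. Cox8b to Cox8a is lower in every group with PE (means 0.353, 0.397 and 0.263) than in Vehicle (0.618), and Atp5g1 to Atp5g2 is higher at 50 µM (1.53 with PE and 1.62 without) than in Vehicle (0.661).

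In complex V the c subunit is encoded by Atp5g1, Atp5g2 and Atp5g3, whose mature products are identical. Atp5g1 had 1124, 959.8 and 813 FPKM in PE, 1381, 1735 and 1333.5 FPKM in PE with 10 µM and 1353, 1909 and 1428 FPKM in PE with 50 µM. In cultures without PE it had 624.5, 588.5 and 462 FPKM in Vehicle, 1156, 1325 and 955 FPKM at 10 µM and 1580.4, 2019.5 and 1660.5 FPKM at 50 µM. With PE all inhibitor libraries lay above PE, and without PE all lay above Vehicle. It was called higher with PE (0.79 ± 0.17 SE, adjusted p = 0.00249), with 10 and 50 µM added to PE (0.62 and 0.69, adjusted p = 0.0203 and 0.00257) and with 50 µM alone (1.65 ± 0.17, adjusted p = 6.01e-07). The call at 10 µM with PE was lost without replicate 2 of PE with 10 µM, PE replicate 2 or PE replicate 3 (0.00092 to 0.0993 over 30 alternatives). The ratio of Atp5g1 to Atp5g2 averaged 0.94 ± 0.14 in PE, 1.25 ± 0.096 in PE with 10 µM, 1.53 ± 0.11 in PE with 50 µM, 0.661 ± 0.066 in Vehicle, 1.14 ± 0.14 in 10 µM alone and 1.62 ± 0.13 in 50 µM alone. In the 7 comparisons its groups did not overlap (exact p = 0.1 in each). The ratio of Atp5g1 to Atp5g3 overlapped between PE and Vehicle (log2 difference 0.13, exact p = 0.4), and in the other 6 comparisons it was higher without overlap (0.35 to 0.85, exact p = 0.1 in each). How reads shared by these similar genes were assigned was not stated, so their split is uncertain.

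Atp5b, the most abundant gene of complex V, had 4349, 4303 and 3863 FPKM in PE, 3786.5, 4715 and 3991 FPKM in PE with 10 µM and 2953, 3425 and 2877 FPKM in PE with 50 µM. Without PE it had 2644.5, 2677 and 2276 FPKM in Vehicle, 3256, 3565 and 2933 FPKM at 10 µM and 2754, 3573 and 3159 FPKM at 50 µM. All PE libraries were above Vehicle, and all libraries of PE with 50 µM were below PE. Atp5b rose with PE (0.72 ± 0.12, adjusted p = 0.00042). The ratio of Atp5b to Atp5g1, chosen after the values were seen and not tested, averaged 4.37 ± 0.45 in PE, 2.82 ± 0.15 in PE with 10 µM, 2.00 ± 0.19 in PE with 50 µM, 4.57 ± 0.35 in Vehicle, 2.86 ± 0.19 in 10 µM alone and 1.80 ± 0.086 in 50 µM alone. With 50 µM added to PE, the head genes Atp5a1 and Atp5b both fell (-0.36 and -0.44). Genes of the central stalk did not move as one, since Atp5c1 and Atp5d rose (0.45 and 0.34, adjusted p = 0.00408 and 0.0244) and Atp5e fell (-0.33). Nor did those of the c subunit, where Atp5g1 rose (0.69) and Atp5g2 and Atp5g3 gave -0.02 and -0.05 (adjusted p = 0.87 and 0.792). Atp5d, the delta subunit of the central stalk, also rose with PE (0.76), with 10 µM alone (0.69) and with 50 µM alone (1.12, adjusted p = 1.06e-06). Atp5f1, the b subunit of the outer stalk, was called in none of the 9 comparisons, and 1 library of 50 µM alone stood at 75.4 FPKM against 26.03 and 19.06 FPKM in the other two.

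In complex I, Ndufs1 and Ndufs7, which bear iron-sulfur clusters, were also called in opposite directions when 50 µM was added to PE. In that comparison 29.3% of all rows were called higher and 27.4% lower, and the Ndufs1 call was lost in part of the alternatives. Ndufs1 had 361, 365 and 319.9 FPKM in PE, 335, 417 and 364 FPKM in PE with 10 µM and 250.2, 307 and 263 FPKM in PE with 50 µM. Without PE it had 181, 176 and 152 FPKM in Vehicle, 262.5, 272.5 and 213.5 FPKM at 10 µM and 224, 318 and 266 FPKM at 50 µM. Vehicle was the lowest group, and with PE all 50 µM libraries were below PE. Ndufs7 had 216, 185 and 173.5 FPKM in PE, 270.3, 286 and 239 FPKM in PE with 10 µM and 295, 375 and 282 FPKM in PE with 50 µM. Its levels without PE were 170.1, 169 and 147 FPKM in Vehicle, 247, 264 and 245 FPKM at 10 µM and 358, 361.5 and 363 FPKM at 50 µM. Its libraries of 50 µM lay above those of each lower dose without PE. Ndufs7 rose with 10 µM and 50 µM added to PE (0.47 and 0.72, adjusted p = 0.00655 and 2.73e-05) and with 10 and 50 µM alone (0.64 and 1.15, adjusted p = 0.000839 and 1.82e-07). The ratio of Ndufs1 to Ndufs7, again chosen after the values were seen, averaged 1.83 ± 0.15 in PE, 1.41 ± 0.15 in PE with 10 µM, 0.866 ± 0.06 in PE with 50 µM, 1.05 ± 0.017 in Vehicle, 0.988 ± 0.1 in 10 µM alone and 0.745 ± 0.13 in 50 µM alone. Among accessory subunits, Ndufb7 had the largest rise at 10 µM with PE (0.58 ± 0.12, adjusted p = 0.00485) and at 10 µM alone (0.78 ± 0.12, adjusted p = 0.000593), and Ndufa12 at 50 µM alone (1.33 ± 0.14, adjusted p = 9.29e-07).

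Counts for the factors that assemble the complexes are read against the share of all rows called higher, which was 17.9% with PE, 9.13% with 10 µM and 29.3% with 50 µM added to PE, 9.17% with 10 µM alone and 30.5% with 50 µM alone, so that calls over all rows also were more frequent at 50 µM. Of 12 assembly factors of complex I tested, 7 rose and 1 fell with PE, 4 rose with 10 µM and 11 with 50 µM added to PE, and 4 rose with 10 µM alone and 11 with 50 µM alone. Ndufaf4, a factor for an early assembly stage, averaged 74.5 ± 5.94 FPKM in PE with 50 µM against 37.1 ± 4.85 in PE (0.99, adjusted p = 5e-06). Of 5 factors of complex III, 3 rose with PE, 5 with 50 µM added to PE and 5 with 50 µM alone, led by Lyrm7, which handles the Rieske protein (1.38, adjusted p = 4.14e-08, with 50 µM added to PE). Of 15 factors of complex IV, 6 rose with PE, 7 rose and 1 fell with 50 µM added to PE, and 12 rose with 50 µM alone. Cox17, the copper chaperone, averaged 561 ± 83.1 FPKM in PE with 50 µM against 309.5 ± 43.9 in PE (0.86, adjusted p = 0.000115). Both factors of complex II tested rose with 50 µM added to PE and with 50 µM alone, and Sdhaf3 gave 1.15 and 1.62 (adjusted p = 0.000303 and 9.04e-06). Of 4 genes for complex V, 2 rose and 1 fell with 50 µM added to PE. The gene that fell was Atpaf1, a chaperone of the beta subunit, at 12.5, 12.8 and 11.9 FPKM in PE with 50 µM against 21.3, 22.0 and 19.8 FPKM in PE (-0.72, adjusted p = 1.85e-05), and the inhibitor protein Atpif1 rose (0.38, adjusted p = 0.0141).

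Carriers supply the ATP synthase with its substrates. Slc25a3, Slc25a4 and Slc25a5, which carry phosphate and adenine nucleotides, all rose with PE, with 10 µM alone and with 50 µM alone, whereas 2 of 3 rose with 10 µM and 1 of 3 with 50 µM added to PE, where 9.13% and 29.3% of all rows were called higher. Of 14 genes listed as regulators of these genes, 4 rose and 1 fell with PE. With 10 µM added to PE 3 rose and 1 fell, and with 50 µM added to PE 4 rose and 2 fell. With 10 µM alone 4 rose, and with 50 µM alone 6 rose and 1 fell. The 14 include Tfam, Tfb1m, Tfb2m and Polrmt, which serve transcription of mitochondrial DNA and not of the nuclear genes described. Of all rows 17.9% rose and 12.7% fell with PE, 9.13% and 7.84% with 10 µM added to PE, 29.3% and 27.4% with 50 µM added to PE, 9.17% and 7.01% with 10 µM alone, and 30.5% and 30.2% with 50 µM alone, so the regulators' count of rises with 50 µM added to PE was near the background. Esrra, a nuclear receptor that acts on such genes, had 61.3, 56.6 and 57.6 FPKM in PE, 84.0, 81.2 and 72.5 FPKM when 10 µM was added and 110.7, 129.7 and 111.5 FPKM when 50 µM was added. Its levels without PE were 48.5, 47.7 and 46.8 FPKM in Vehicle, 67.6, 73.8 and 73.1 FPKM at 10 µM and 115, 122 and 132 FPKM at 50 µM. Its doses did not overlap with or without PE, and it was called higher in each of the 5 comparisons with PE or Vehicle (adjusted p from 2.04e-09 to 0.00885). Ppargc1a, a coactivator of mitochondrial genes, averaged 33.8 ± 5.92 FPKM in 10 µM alone and 15.6 ± 6.15 in 50 µM alone, against 15.5 ± 1.64 in Vehicle, and was called at 10 µM (1.06, adjusted p = 0.00382). Gabpa, a subunit of GABP whose row shares its locus with the complex V gene Atp5j, was lower with 50 µM added to PE (-0.42, adjusted p = 0.00334) and with 50 µM alone (-0.47, adjusted p = 0.00117).

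Promoters of 70 members, 250 bases before to 50 after the start, could be matched by current or older symbol, and 4 motifs were searched on both strands. The NRF1 core GCGCATGC was present in 10 of 70 promoters (14.3%), against 2.66% of 27457 promoters of the same length. The ETS core CCGGAAGT was present in 7 (10%), against 4.01%, the YY1 core AAGATGGCG in 10 (14.3%), against 1.93%, and the extended half-site TCAAGGTCA of estrogen-related receptors in 2 (2.86%), against 0.412%. Of the 70, 27 held at least 1 motif. NRF1 cores lay in promoters of 2 of 32 complex I genes, 1 of 4 complex II genes, 1 of 6 complex III genes, 1 of 12 complex IV genes, 4 of 15 complex V genes and Cycs, while 7 of the 10 YY1 cores lay in complex I. The complex IV gene with an NRF1 core was Cox8c, which was too low to be tested. The 7 YY1 cores of complex I lay 4 to 26 bases after the start. Those of Uqcrc1, Atp5j and Atp5j2 lay at -1, -111 and 36 bases from it. None of the 4 motifs was found in the windows of Sdha, Cox6a2, Cox8b, Atp5b or Atp5g1. These are matches of letters, not sites shown to be bound.

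Of the 2 members that were not tested, Cox6c-ps1, a pseudogene by its symbol, was listed at the floor of 0.01 FPKM in all 18 libraries and Cox8c, a testis form, in all but one, where it had 0.216 FPKM. Of the tested genes, 10 share a deposited locus with other rows, so that their values are uncertain: Ndufa10, Ndufa10l1, Ndufa2, Ndufs3, Uqcrb, Cox7a2, Cox7b, Cox7c, Atp5j and Atp5j2. Without rows that share a locus, 54 of 71 genes rose and 1 fell with PE. Genes of this set also have many processed copies in mammalian genomes, and how reads shared with such copies were counted was not stated.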

How the data were processed

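Polyadenylated RNA of 18 libraries was sequenced by the authors, and their deposited table gives 1 FPKM value per gene and library, with a floor of 0.01 FPKM. Bowtie2, Cufflinks and rn5 are named in the submitters' processing notes; versions, the annotation, strand use and filters are not given in the sources used here. Each library's group and number come from the labels. They do not say whether replicates came from different cultures or animals, and p-values here therefore reflect no more than the spread among these libraries, possibly a technical one.

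FPKM values are not counts, so log2(FPKM + 1) of the deposited values entered limma 3.58.1 (R 4.3.3, variance trend, 1 fit of 6 group means, 12 residual degrees of freedom), for the 10478 rows that reached 1 FPKM in 3 or more libraries. P-values were adjusted over all rows of a comparison by the Benjamini-Hochberg method, and the threshold was 0.05. Fold changes of FPKM + 1 understate those of low genes. Their median standard error (SE) over the members was 0.13 in comparisons between groups and 0.19 in the interactions. The fit was tested on simulated data. Isoform ratios were compared by exact permutation of the libraries (numpy 2.4.6), without use of the replicate numbers. Python 3.11.15 with pandas 2.3.3 and matplotlib 3.10.9 made tables and plots. The PE response at each dose and the ratios between complexes are descriptions without a test.

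Members and gene lists (146 genes) were chosen with earlier results of these data known. Named in detail were all Sdh genes, Cyc1, Cycs, isoform pairs, the most abundant gene of each complex, the called gene of each complex with the largest rise and fall per comparison, and up to 4 called genes of a list. Promoter sequences are from RefSeq (GRCr8). Deviations of same-numbered libraries from their group means correlated by 0.213 to 0.587 in 45 pairs, against -0.462 to 0.0949 in 90 pairs with different numbers, so the numbers pair the samples; a fit with the replicate number as a block is therefore given where it changes a call. Alternatives were pseudocounts of 0.1 and 0.5, no filter, a filter of 5 FPKM, 3 scalings, the compared groups only, the block, no trend, array weights, rows without a shared locus, another assignment of members, and leaving out each library. Mitochondrially encoded genes were not analysed here.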

Additional observations from a re-analysis of the deposited data

Results flagged for a closer look

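The PE response of the genes differed between cultures with 50 µM Senexin A and cultures without inhibitor, by the interaction tested in limma. It was smaller with the inhibitor in 39 of the 81 genes, where 4.76% of all rows were called lower and 2.24% higher. The count was 17 to 65 when 1 library was left out and 72 with the replicate block. The difference between the 2 responses on the log2 scale was -1.06 for Ndufa12, -0.70 for Sdhb, -1.07 for Uqcrq, -1.36 for Cox6a2 and -0.96 for Atp5g1, which is the gene with the largest called difference in each complex. The calls of Ndufa12, Uqcrq and Cox6a2 were kept in all alternatives run. That of Sdhb (adjusted p = 0.0413) was lost in 13 of 30 alternatives (0.00117 to 0.109), and that of Atp5g1 (adjusted p = 0.024) in 6 of 30 (0.000923 to 0.0721), each an omission of 1 library. These genes were also higher in 50 µM alone than in Vehicle.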

How the results depend on the processing

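Median log2 changes of the 81 genes kept their sign under each scaling where they were largest. After quantile normalization and at equal FPKM sums they were 0.27 and 0.17 for PE (0.57 as deposited), 0.38 and 0.37 for 10 µM alone (0.56), 0.44 and 0.42 for 50 µM alone (0.72) and -0.40 and -0.34 for the interaction at 50 µM (-0.66). Counts of genes called moved with the replicate block, since numbers pair the samples: 39 for 10 µM added to PE (18 without it), 47 for 50 µM added to PE (29), 34 for PE with 50 µM against PE with 10 µM (13), 45 for 50 against 10 µM alone (27), 10 for the interaction at 10 µM (0) and 72 for that at 50 µM (39); the block moved no other count by over 1.5 times. Array weights gave 22, 1 and 67 for PE with 50 against 10 µM and for the interactions at 10 and 50 µM, and quantile normalization gave 45 for 50 µM added to PE, 32 for PE with 50 against 10 µM and 2 for the interaction at 10 µM. Leaving out 1 library gave 4 to 20 genes for 10 µM added to PE, 35 to 71 for 10 µM alone, 6 to 27 for PE with 50 against 10 µM, 0 to 1 for the interaction at 10 µM and 17 to 65 for that at 50 µM. Signs reversed for PE in Atp5g2 (-0.15) and Uqcr10 (-0.91) after quantile normalization and in Atp5g2 (-0.11), Cox7a2l (-0.17), Cox7c (-0.022), Ndufa8 (-0.037) and Sdhc (-0.079) at equal sums. For 50 µM alone they reversed after quantile normalization in Atp5a1 (-0.15), Atp5b (-0.16), Atp5g2 (-0.082), Cox6c (-0.081), Cox7c (-0.051), Cox8a (-0.13), Cox8b (-0.42, and -0.29 at equal sums) and Uqcr10 (-0.48). Cox4i1 reversed for 50 against 10 µM alone (-0.018) and Uqcr10 for the interaction at 50 µM (0.48), both after quantile normalization. The causes were not tested. Over all rows, equal sums gave 6651 calls for PE (3205 as deposited), 3031 for 10 µM alone (1696), 80 for the interaction at 10 µM (32) and 2820 for that at 50 µM (734). The block gave 2924 for 10 µM added to PE (1778), 2761 for 10 µM alone, 230 and 1690 for the interactions. Array weights gave 86 and 1265 for the interactions, no filter gave 20 for that at 10 µM, and leaving out 1 library gave as few as 1032 for 10 µM added to PE, 949 for 10 µM alone, 13 for the interaction at 10 µM and 391 for that at 50 µM. At equal sums 18% of all rows were higher and 29.9% lower at 50 than at 10 µM alone, and 24.4% and 14.9% with PE. Total reads are unknown, so the depth behind low genes such as Ndufa4l2, Ndufs6 and Cox4i2 cannot be given.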
